A study of Mus musculus with 8 samples.

Results

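The Hox genes are described here through the DNA methylation of their 4 clusters in mouse mammary tumours. Of the 39 mouse Hox genes, 38 were listed as members and all 38 had values; the others were not analysed here. The rule takes gene bodies in GENCODE M21 plus the 2000 bp upstream of each start and uses no methylation value, though the Hox genes were picked as a subject with earlier results of these data known. They held 1349 of the 555155 autosomal cytosines that were covered by at least 10 reads in all 8 libraries, with 457 cytosines in cluster A, 272 in cluster B, 323 in cluster C and 297 in cluster D. At least 3 such cytosines were required of a gene, and the 38 Hox genes were among 21230 autosomal genes that met this, with 11 to 208 cytosines each (median 31.5).

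Hox genes encode homeodomain transcription factors that assign position along the head-to-tail axis, and their order on the chromosome matches the order of the body regions in which they act. In cells that do not use them, the clusters are usually held silent by Polycomb proteins with their CpG islands free of DNA methylation, whereas in many tumours these same islands gain methylation. DNA methylation of CpG sites is copied after replication by DNMT1, the enzyme that 5-azadC traps on DNA.

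The tumours grew from NIC-5231, a mouse breast cancer cell line, injected into the mammary fat pad of immunodeficient NSG mice that were 5-7 weeks old. There were 4 randomised groups of 5 mice. They received vehicle (saline with PEG and DMSO), C29 at 10 mg/kg, 5-azadC (5-aza-2'-deoxycytidine, decitabine) at 1 mg/kg, or both drugs at those doses. Dosing was intraperitoneal at intervals of 2 days and started at the palpable stage. C29 inhibits ERRα, a nuclear receptor that controls energy metabolism. Tumour DNA was measured by reduced representation bisulfite sequencing (RRBS), which reads CpG-rich fragments after conversion of unmethylated cytosine, in 2 libraries per group, each made from the pooled DNA of 2 mice. The model is a single cell line, all 4 groups shared the injected vehicle, and since tumour and host are both mouse, host cells in the tissue could not be separated, so a change in methylation per cell cannot be told apart from a change in the mixture of cells. Every gene-level p-value below measures only the spread between these pools, and the tile test described later measures read counting alone.

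Read counts summed over cytosines were 51359825 to 81299065 per library, with a median of 21 to 30 reads per cytosine. Over the Hox cytosines the sums were 53098 to 81695. In these sums a read counts once at each cytosine it covers. An unmethylated spike-in read 0.216% to 0.329% methylated and a methylated one 97.5% to 98.3%, so conversion was similar throughout. No transcripts were measured, so the tissue label was compared only with methylation over marker genes in vehicle tumours. The 5 mammary epithelial markers tested stood at 14.9% to 37.7%, the 4 leukocyte markers at 64.4% to 79.1%, the 5 fibroblast markers at 28.3% to 83.3% and the 3 endothelial markers at 51.9% to 81.4%. With 5-azadC the medians of these lists differed by -6.27, -8.97, -4.16 and -6.05 percentage points, and the part of cell mixture in the Hox values was not tested.

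The windows below are printed because the results turn on them, and were chosen after their values were seen. Each is given on the sense strand of its gene from mm10/GRCm38, and carries in capitals the CpG sites that were measured, on either strand. The first 4 are windows where libraries of different treatments stood apart.
Hoxd4 coding exon, chr2:74727469-74727631, plus strand: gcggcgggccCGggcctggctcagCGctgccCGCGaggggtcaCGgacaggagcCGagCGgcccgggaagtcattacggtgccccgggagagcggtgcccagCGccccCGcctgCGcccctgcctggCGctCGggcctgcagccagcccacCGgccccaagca
Hoxb7 exon and intron, chr11:96287009-96287177, plus strand: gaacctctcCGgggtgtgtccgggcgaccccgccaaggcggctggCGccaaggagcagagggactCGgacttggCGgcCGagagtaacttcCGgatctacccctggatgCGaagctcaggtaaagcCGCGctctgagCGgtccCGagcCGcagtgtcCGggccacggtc
Hoxb13 upstream, chr11:96193623-96193870, plus strand: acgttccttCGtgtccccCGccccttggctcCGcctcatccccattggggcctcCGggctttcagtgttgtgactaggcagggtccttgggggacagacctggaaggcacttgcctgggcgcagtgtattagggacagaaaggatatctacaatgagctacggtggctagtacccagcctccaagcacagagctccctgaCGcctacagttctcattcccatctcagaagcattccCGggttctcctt
Hoxd3 intron, chr2:74741024-74741135, plus strand: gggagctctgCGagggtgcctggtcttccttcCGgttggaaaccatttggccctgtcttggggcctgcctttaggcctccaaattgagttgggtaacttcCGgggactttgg
The next windows show how repetitive the read-out could be (Hoxd1 and Hoxa2) and what an unmethylated Hox exon looked like (Hoxb4).
Hoxd1 coding exon, chr2:74763275-74763339, plus strand: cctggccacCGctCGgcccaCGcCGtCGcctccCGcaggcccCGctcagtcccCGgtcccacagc
Hoxa2 coding exon, chr6:52164377-52164444, minus strand: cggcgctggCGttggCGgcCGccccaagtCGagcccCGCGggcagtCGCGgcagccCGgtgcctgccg
Hoxb4 coding exon, chr11:96318928-96319010, plus strand: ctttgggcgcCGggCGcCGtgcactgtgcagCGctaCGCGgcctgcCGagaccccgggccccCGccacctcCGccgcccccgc

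The first question was how methylated the clusters were and how evenly. In vehicle tumours the Hox cytosines averaged 37.4% ± 2.13 (SD, n = 2), against 34.4% ± 0.0143 (SD, n = 2) for autosomal cytosines outside Hox genes. Clusters A and D were the most methylated, at 45.3% ± 6.40 and 47.8% ± 0.954, and clusters B and C the least, at 28.0% ± 0.385 and 24.7% ± 1.05 (SD, n = 2 each). The 2 vehicle libraries of cluster A differed by more than the distance between clusters A and D, so their order was not resolved, whereas both libraries of A and D lay above both libraries of B and C. Grouped by paralog number, the anterior genes (1 to 3) averaged 48.9%, the central genes (4 to 8) 33.6% and the posterior genes (9 to 13) 36.0% in vehicle.

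Single genes spanned nearly the whole scale, as the plot of gene levels by library shows. In cluster A, Hoxa2, which patterns the hindbrain and second pharyngeal arch, was the most methylated at 83.4% ± 16.8, followed by Hoxa6 at 78.6% ± 7.19, and Hoxa7 was the least at 12.5% ± 7.06 (SD, n = 2 each). In cluster B, Hoxb3 at 64.7% ± 5.13 and Hoxb1, a determinant of hindbrain identity, at 59.4% ± 14.2 contrasted with Hoxb2 at 1.68% ± 1.24. Cluster C was flatter, from Hoxc10, a lumbar patterning gene, at 41.9% ± 3.10 and Hoxc13, which is needed for hair, at 37.1% ± 5.4 down to Hoxc8 at 16.2% ± 6.68. In cluster D, Hoxd8 at 67.3% ± 2.43 and Hoxd1 at 57.6% ± 7.98 were highest and Hoxd12, a limb gene, lowest at 22.7% ± 13.4. High and low genes were neighbours: Hoxb3 lies between Hoxb4 at 5.07% ± 7.17 and Hoxb2. The median Hox gene was at 37.0%, against 26.7% for all genes tested, and the members lay between the 18.7th and the 89.7th percentile of all genes.

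**Figure D1:**
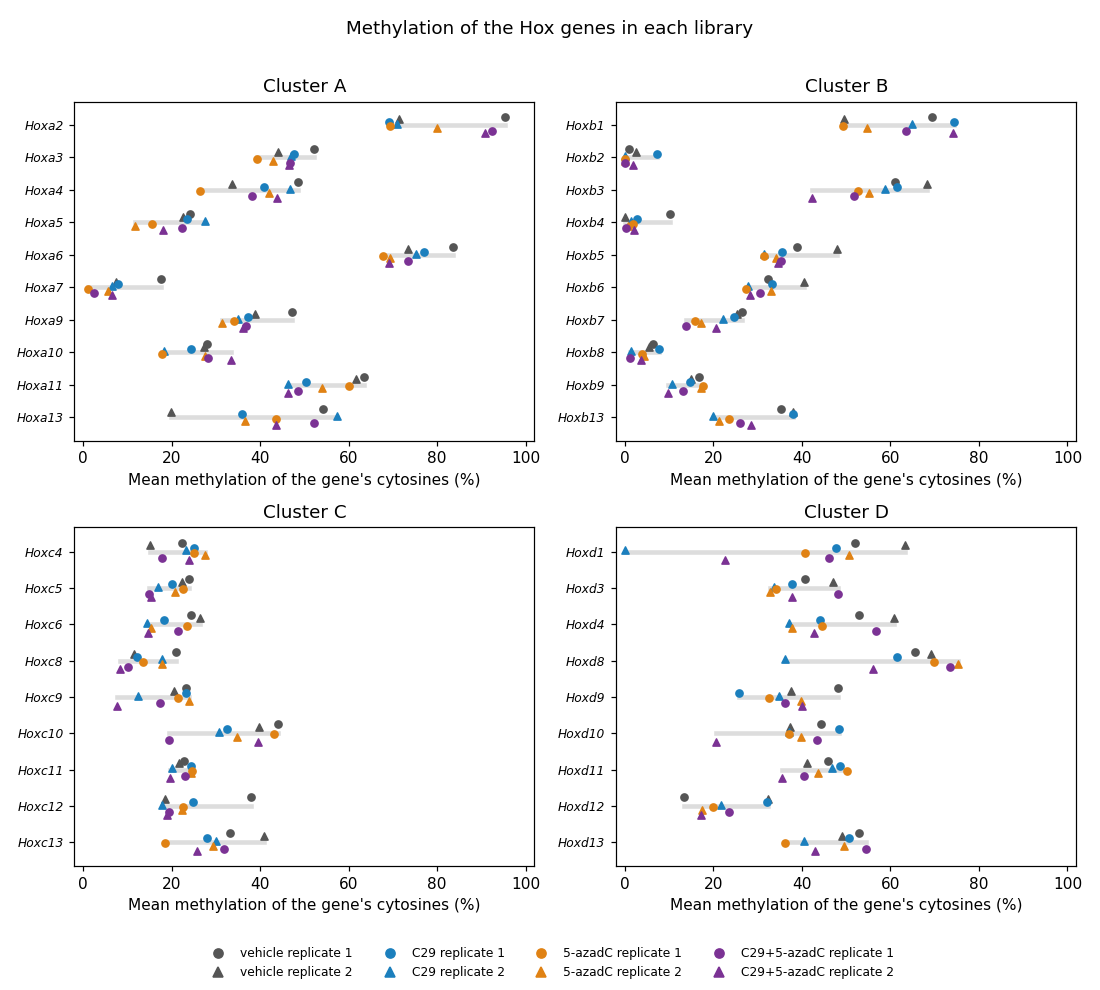
Mean methylation (%, horizontal axis) of the cytosines of each Hox gene in each of the 8 libraries, with 1 panel per cluster, colours for the 4 groups, circles for replicate 1 and triangles for replicate 2; grey bars span the 8 values. Hoxa2 and Hoxa6 lie at the high end, Hoxb2, Hoxb4 and Hoxb8 near 0, and Hoxd1 reached 0% in C29 replicate 2.

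Along the clusters the 1349 cytosines fell into 151 tiles of 1000 bp, 120 of them with at least 3 cytosines. Methylation alternated over short distances: 28 tiles were under 10% in vehicle and 13 were over 80%. Of those 13, 10 were in cluster A, mostly within the long annotated body of Hoxa3, a gene of pharyngeal and thymus development. Hoxa3, with 208 cytosines, averaged 52.2% and 44.0% in the vehicle libraries, and 143 of its cytosines also lay in other Hox genes that its annotation overlaps. In all, 13 of the 38 genes shared cytosines with another member, so their values are not independent. Tiles under 10% numbered 10 in cluster B and 12 in cluster C, against 3 each in clusters A and D. The Hoxb4 exon window printed above was such a stretch, at 4.09% and 0% in the vehicle libraries and at 0% to 2.47% in the 6 others.

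**Figure D2:**
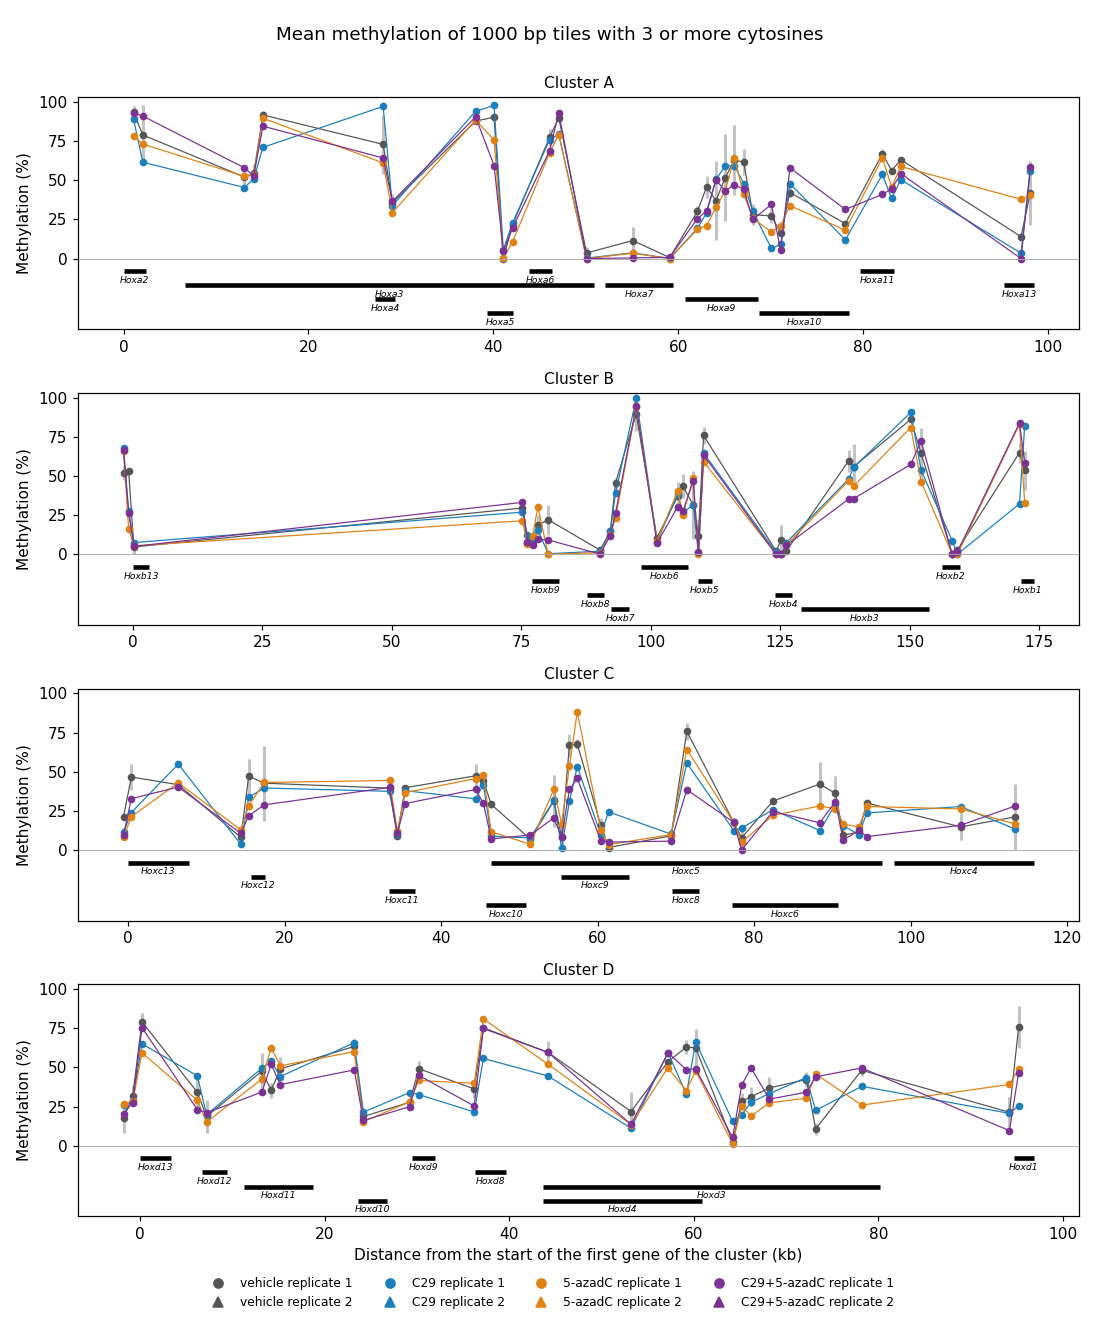
Mean methylation (%, vertical axis) of 1000 bp tiles with 3 or more cytosines along each cluster, by distance from the start of the first gene (kb); lines join group means, grey bars span the 2 vehicle libraries and black bars mark the annotated genes. Stretches near 0% around Hoxb2 and Hoxb4 lie beside tiles of Hoxb3 and Hoxb1 that are mostly methylated, and the 4 groups follow each other along the clusters.

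The Hox clusters differed from the rest of the genome in the kind of level more than in its mean. Between 36.0% and 42.6% of Hox cytosines lay between 20% and 80% methylation in the 8 libraries, which outside Hox genes held for 17.2% to 23.4%. CpG density gave the widest contrast. A cytosine was called CpG-dense when the 201 bp around it held over 50% G and C and a CpG observed-to-expected ratio over 0.6, which applied to 71.8% of Hox cytosines and 56.5% of the other cytosines on the same 4 chromosomes. CpG-dense Hox cytosines averaged 39.3% and 35.8% in the vehicle libraries and other CpG-dense cytosines 13.2% and 13.4%. Where CpGs were sparse the order was the opposite, with 38.1% and 36.3% in Hox genes against 59.4% and 58.9% elsewhere. Both orders held in each of the 8 libraries, and Hox methylation was nearly the same in dense and sparse sequence. This is a description of these regions with no test, since cytosines of a library are not replicates.

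**Figure D3:**
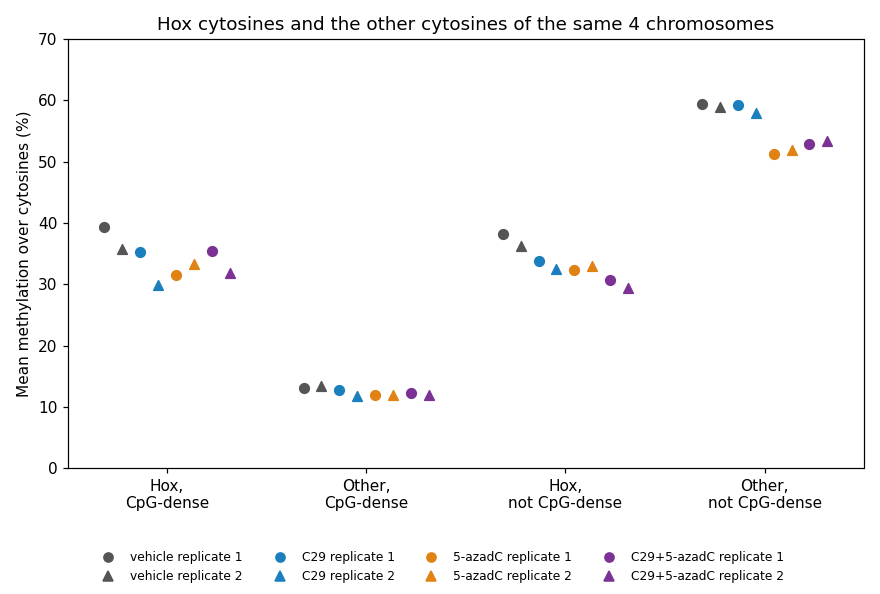
Mean methylation (%) in each of the 8 libraries over Hox cytosines and over the other cytosines of chromosomes 2, 6, 11 and 15, divided by CpG density; colours mark groups and symbols replicates. All CpG-dense Hox values lie above 29%, all other CpG-dense values below 14%, and the sparse cytosines lie in the reverse order.

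By position within a gene, noncoding exons or untranslated regions were highest and coding exons lowest in both vehicle libraries. Upstream Hox cytosines averaged 37.5% in vehicle, coding exons 35.4%, noncoding exons or untranslated regions 42.8% and introns 37.0%. Within 250 bp of a start site the mean was 36.9%, and beyond 2000 bp it was 38.4%. Upstream cytosines were measured for 23 of the 38 genes, and there the range was again wide. The upstream level in vehicle was 79.2% for Hoxa6 over 25 cytosines and 63.1% for Hoxa11, a gene of the forelimb and uterus, over 21. It was 14.9% for Hoxb7 over 11 cytosines and 8.06% for Hoxc12 over 8.

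Replicate libraries of a group differed widely at Hox cytosines. The mean absolute difference between the 2 libraries was 20.04 to 23.2 percentage points per Hox cytosine over the 4 groups, against 10.6 to 13.2 outside. Among cytosines whose group mean lay between 20% and 80%, the difference was 37.1 points in Hox genes and 36.4 outside in vehicle, 31.8 and 36.4 with C29, 34.2 and 33.9 with 5-azadC, and 40.2 and 40.05 with both drugs, so at this level Hox cytosines and others had similar spreads, apart from a smaller one in Hox genes with C29. At group means under 20% the difference was larger in Hox genes in all 4 groups, at 7.97 to 8.77 points against 2.64 to 2.78 outside, and at 80% or more it was 13.2 to 16.9 against 8.06 to 12.4. Neighbouring cytosines within 50 bp on a strand repeated exactly the same percentage in 17.3% to 25.4% of Hox pairs at intermediate level, against 14.3% to 21.6% outside. The Hoxa2 window printed above gave the clearest case: its 9 CpGs took 1 to 4 distinct values in a library, and all 9 read 56.5% in vehicle replicate 2 and 100% in C29+5-azadC replicate 2. Whether such runs trace back to few original molecules was not tested. Extreme values were spread over several libraries. Vehicle replicate 1 held the highest value in 14 of the 38 genes and vehicle replicate 2 in 9. The lowest value was in 5-azadC replicate 1 for 10 genes, C29 replicate 2 for 8 and C29+5-azadC replicate 2 for 7.

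The second question was how the clusters differed with 5-azadC. Over all Hox cytosines, vehicle libraries read 38.9% and 35.9%, C29 libraries 34.8% and 30.6%, 5-azadC libraries 31.7% and 33.2%, and libraries with both drugs 34.1% and 31.1%. All 6 treated libraries lay below both vehicle libraries. This order also held outside Hox genes, with vehicle at 34.41% and 34.39% and the treated libraries at 30.0% to 34.2%. The 4 libraries with 5-azadC averaged 2.54 points less than the 4 without it (32.5% against 35.1%, pooled SD 2.17), and the groups overlapped because C29 replicate 2 lay below all of them. Without C29 replicate 1 the difference was -1.49, and with reads pooled over the cytosines -1.63. Outside Hox genes the same difference was -3.39 points (pooled SD 0.418). By cluster the difference was -3.30 in A, -4.20 in B, -2.26 in C and -0.166 in D, where the pooled SD was 5.44. In CpG-dense sequence it was -2.04 for Hox and -0.704 for other cytosines, and in sparse sequence -3.82 and -6.56.

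Per gene, 30 of the 38 members had a lower mean with 5-azadC, as did 16268 of all 21230 genes, and the median difference was -3.12 points for the members and -1.91 for all genes. In a limma model over all genes, with Benjamini-Hochberg adjustment, 0 of 38 Hox genes passed an adjusted p of 0.05 (0.00471% of all genes did, a single gene of 3 cytosines). At an unadjusted p under 0.05 there were 3 of 38 members, all lower, where the background was 17.8% of all genes. edgeR on the reads gave 0 members and 0% of all genes after adjustment, and before it 1 member, Hoxa7, against 7.8% of all genes. In 5 members, which were Hoxa5, Hoxa6, Hoxa7, Hoxb3 and Hoxb7, all 4 libraries with 5-azadC lay below all 4 without; the background for this was 11.8% of all genes, and no member showed the reverse (background 0.301%). A share of 5 in 38 is near that background.

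Hoxa5, which shapes the airways and the upper thorax, read 24.2% and 22.5% in vehicle, 23.5% and 27.4% with C29, 15.5% and 11.7% with 5-azadC, and 22.3% and 18% with both. Its highest library with 5-azadC, at 22.3%, was just under its lowest without, at 22.5%. The limma difference was -7.51 points (SE 1.76, adjusted p = 0.205), and it was -4.86 with cytosines of 5 or more reads and -11.3 with those of 20 or more. Hoxb7, a thoracic patterning gene, read 26.3% and 25.3% in vehicle, 24.7% and 22.2% with C29, 15.8% and 17.1% with 5-azadC, and 13.8% and 20.6% with both. Its 2 sets of libraries were apart by a small gap, and limma gave -7.82 points (SE 1.82, adjusted p = 0.205). This difference was -3.06 with cytosines of 5 or more reads, -3.85 with strands summed and -3.02 in the upstream region alone. Hoxb3 read 61% and 68.3% in vehicle, 61.6% and 58.7% with C29, 52.8% and 55.1% with 5-azadC, and 51.8% and 42.3% with both. It had the largest difference of any member at 10 reads, -11.9 points (limma, SE 3.11, adjusted p = 0.207), but -6.11 with cytosines of 5 or more reads, and its lowest library was one with both drugs.

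The other 2 genes were in cluster A. Hoxa6, with a limma difference of -7.41 points (SE 2.99, adjusted p = 0.285), read 83.7% and 73.5% in vehicle, 77.1% and 75.2% with C29, 67.9% and 69.4% with 5-azadC, and 73.4% and 69.2% with both. Here the gap between the sets of libraries was a fraction of a point. The difference was -4.86 without vehicle replicate 1 and -3.74 with pooled reads. Hoxa7 was low throughout, at 17.5% and 7.54% in vehicle, 7.91% and 6.55% with C29, 1.05% and 5.63% with 5-azadC, and 2.45% and 6.45% with both. Its difference of -5.99 points leaned on vehicle replicate 1, which was more than 2 times any other library.

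Among the other large differences the libraries overlapped. Hoxb13, a prostate and tail-end gene, differed by -7.97 points (limma, SE 4.15, adjusted p = 0.369), Hoxc13 by -6.70 (SE 3.39, adjusted p = 0.359) and Hoxd10, a lumbar motor neuron gene, by -6.64 (SE 5.89, adjusted p = 0.563). These values leaned on single libraries, in both directions. Hoxd10 was -0.941 without C29+5-azadC replicate 2, -3.85 without C29 replicate 1 and -12.3 without C29+5-azadC replicate 1. Hoxb13 was -3.49 without C29 replicate 1 and -12.5 without C29 replicate 2. Hoxc13 was -3.99 without 5-azadC replicate 1 and -9.40 without 5-azadC replicate 2. They also moved with the processing, to -1.95 for Hoxb13 with pooled reads, -2.81 for Hoxc13 with strands summed and -2.44 for Hoxd10 with 5 reads. Hoxd8 was the only one of the 8 largest differences with a higher mean under 5-azadC, by 10.6 points (limma, SE 6.99, adjusted p = 0.455). It read 65.6% and 69.1% in vehicle, 61.5% and 36.1% with C29, 69.9% and 75.2% with 5-azadC, and 73.5% and 56.1% with both. The low C29 replicate 2 set much of that value, and vehicle alone was within the range of the treated libraries. The Hoxd8 difference was 4.25 points without C29 replicate 2, 6.26 without C29+5-azadC replicate 1 and 17.0 without C29 replicate 1. With cytosines of 20 or more reads it was -13.2.

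**Figure D4:**
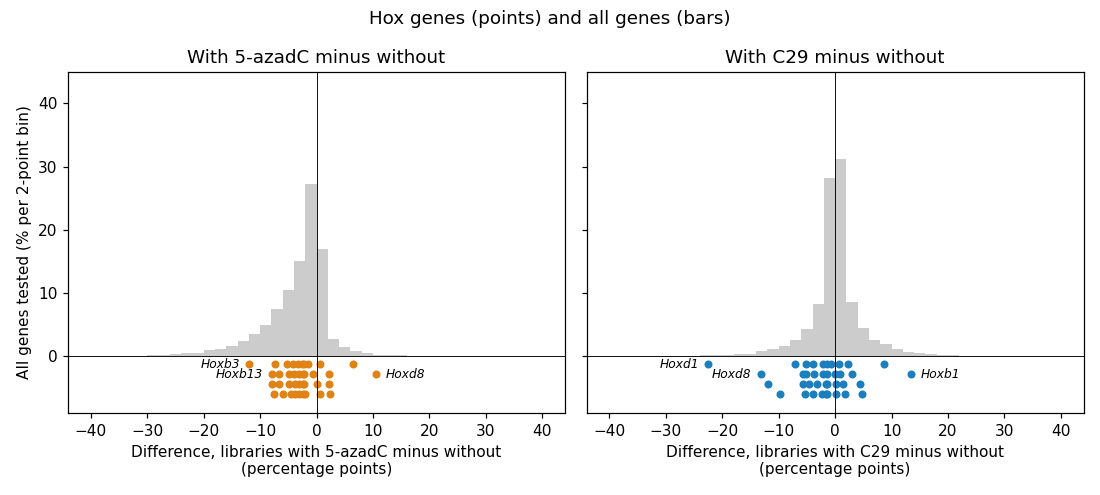
Differences in mean methylation per gene (percentage points, horizontal axis) between the 4 libraries with and the 4 without 5-azadC (left) or C29 (right); grey bars give the share of all 21230 genes tested in bins of 2 points and dots the 38 Hox genes, spread vertically only for legibility. With 5-azadC the dots run from Hoxb3 at -11.9 to Hoxd8 at 10.6, and with C29 from Hoxd1 at -22.5 to Hoxb1 at 13.5.

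For C29 the Hox mean was 2.30 points lower in the 4 libraries with C29 than in the 4 without (32.6% against 34.9%, pooled SD 2.17), while outside Hox genes the difference was 0.07 points. C29 replicate 2 weighed on this, and without it the Hox difference was -1.25 points. By cluster the C29 difference was 0.0769 in A, -2.28 in B, -4.19 in C and -3.93 in D. The pooled SDs were 3.31, 1.83, 1.16 and 5.44 in that order. Per gene, 26 of 38 members were lower with C29, as were 10181 of all 21230 genes, with a median of -1.61 against 0.0144 for all genes. In limma 0 of 38 passed an adjusted p of 0.05 (background 0.00471%), and 3 of 38 had an unadjusted p under 0.05, against 5.78% of all genes. edgeR gave 0 members and 0% of all genes after adjustment, and before it 1 member, Hoxc5, against 3.81% of all genes.

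The 3 genes were Hoxa11, Hoxc5 and Hoxb9, all lower with C29. Hoxa11 read 63.4% and 61.6% in vehicle, 50.3% and 46.2% with C29, 60.2% and 54.0% with 5-azadC, and 48.6% and 46.2% with both. All 4 C29 libraries lay below the 4 others, with or without 5-azadC, and limma gave -11.9 points (SE 2.29, adjusted p = 0.677). Hoxc5, whose annotated body spans several neighbours, differed by -5.65 points (limma, SE 1.14, adjusted p = 0.705), and 136 of its 199 cytosines were shared with them. Hoxb9, one of the paralogs that act in mammary gland development during pregnancy, differed by -4.61 points (limma, SE 1.34, adjusted p = 0.786). In Hoxc5 and Hoxb9, too, all 4 libraries with C29 lay below the 4 others, each by a small gap. The share of all genes with this order for C29 was not counted, so the order has no background here.

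The largest C29 differences were not the steadiest. Hoxd1, a gene of sensory neurons, read 52.0% and 63.3% in vehicle, 47.8% and 0% with C29, 40.8% and 50.6% with 5-azadC, and 46.1% and 22.7% with both. Its difference of -22.5 points (limma, SE 12, adjusted p = 0.894) leaned on C29 replicate 2, where all 8 CpGs of the window printed above read 0%. The next lowest library was C29+5-azadC replicate 2 at 22.7%, while C29 replicate 1 lay between the 5-azadC libraries. Hoxd8 differed by -13.2 points (limma, SE 6.99, adjusted p = 0.894), and C29 replicate 2 was again its lowest library. Hoxb1 had the highest positive difference, 13.5 points (limma, SE 5.70, adjusted p = 0.888), with vehicle at 69.5% and 49.4% and C29 at 74.5% and 64.8%.

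Whether 5-azadC acted differently with and without C29 was tested as an interaction. In limma 0 of 38 members passed an adjusted p of 0.05 (background 0.00471%) and 4 had an unadjusted p under 0.05, against 6.02% of all genes. edgeR gave 0 members after adjustment (background 0%) and 3 before it (background 3.92%). These were Hoxa2, Hoxa3 and Hoxa7, of which only Hoxa2 was also among the 4 from limma. For Hoxa2, Hoxd3 and Hoxd4 the 5-azadC difference was higher with C29 than without, by 30.2 (SE 11.8), 17.5 (SE 6.16) and 24.8 points (SE 8.63). For Hoxd11 it was lower, by -13.1 points (SE 5.05). The adjusted p from limma was 0.804 to 0.823 in these 4. Hoxa2 shows the shape: 95.3% and 71.5% in vehicle, 69.2% and 71.1% with C29, 69.4% and 79.96% with 5-azadC, and 92.4% and 90.8% with both. The 2 combination libraries were near the higher vehicle library. Hoxd4, at 52.9% and 60.7% in vehicle, read 44.1% and 37.2% with C29, 44.5% and 37.6% with 5-azadC, and 56.7% and 42.7% with both, so both single drugs lay below vehicle and the combination libraries fell on either side of that gap. Hoxd3 and Hoxd4 shared 41 cytosines, which is every cytosine of Hoxd4.

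The study's own comparisons set each treatment against vehicle, so these 3 comparisons share the vehicle libraries. The members' medians were -4.62 points with C29 alone, -6.17 with 5-azadC alone and -5.995 with both, against -0.114, -2.31 and -1.61 for all genes. In tiles of 1000 bp, a tile was called when a logistic test on pooled reads gave an adjusted p under 0.01 and methylation differed by at least 25 points. This test takes reads as independent and leaves out the spread between pools. C29 called 8 of 151 Hox tiles, 6 of them lower, against a background of 10.5% of all autosomal tiles. 5-azadC called 14, with 13 lower (background 15.3%), and the combination called 10, with 7 lower (background 14.9%). All 3 shares were below the background, but 120 of 151 Hox tiles held at least 3 cytosines, against 52186 of all 110339 tiles. Among tiles of at least 3 cytosines each treatment called 7 of 120 (5.83%). There the backgrounds were 3.3%, 6.26% and 6.02% in that order (C29, 5-azadC, combination), so the C29 share was above its background and the others close to theirs. In 6, 12 and 5 of the called tiles the pair of treated libraries did not overlap the pair of vehicle libraries, against 6.53%, 10.7% and 9.55% of all tiles called in this way; of the 151 Hox tiles these are 3.97%, 7.95% and 3.31%. With overdispersion between libraries in the test (an F test), 0 tiles were called in each comparison; 9, 9 and 6 Hox tiles (5.96%, 5.96% and 3.97%) had an unadjusted p under 0.05, against 4.34%, 7.13% and 5.93% of all tiles.

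In all, 25 Hox tiles were called in at least 1 comparison. The Hoxd4 tile at chr2:74727001-74728000 held 16 cytosines, mostly in a coding exon. Its read counts, summed over these cytosines, were 468 to 875 per library. The tile read 55.3% and 63.3% in vehicle, 28.4% and 34.4% with C29, 33.3% and 26.0% with 5-azadC, and 50.7% and 53.5% with both. Each single drug was well below vehicle, with differences of -26.6 points for C29 and -29.0 for 5-azadC, and the combination differed by -6.55. In the printed window, 13 of 19 CpGs were measured and a library took 6 to 11 distinct values, so this tile did not rest on a single repeated value. The Hoxc13 tile at chr15:102921001-102922000, with 16 cytosines in the upstream region and first exon, read 43.6% and 54.5% in vehicle, 22.1% and 29.9% with C29, 20.8% and 22.6% with 5-azadC, and 43.9% and 28.3% with both. It was called for 5-azadC (-27.5 points) and came close for C29 (-23.4).

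The Hoxb13 tile at chr11:96193001-96194000 lies upstream of the gene and was called for 5-azadC. Its 7 cytosines read 53.2% and 52.1% in vehicle, 40.7% and 22% with C29, 26.9% and 18.7% with 5-azadC, and 25.7% and 37.1% with both. Every treated library was below both vehicle libraries, with differences of -17.0, -27.8 and -18.3 points. The Hoxd1 tile at chr2:74763001-74764000 was the only one called in all 3 comparisons. It read 62.5% and 88.9% in vehicle, 51.0% and 0% with C29, 47.1% and 53.6% with 5-azadC, and 69.1% and 24.3% with both, and the 2 libraries of the combination fell on opposite sides of vehicle replicate 1. The Hoxa2 tile at chr6:52164001-52165000 was called for C29 at -26.4 points, but its vehicle libraries, at 98.0% and 62.7%, were further apart than that, and C29 at 56.7% and 62.4% was close to the lower.

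In Hoxb1, tiles next to each other differed in direction. At chr11:96365001-96366000, 3 coding cytosines read 71.3% and 58.3% in vehicle, 28.6% and 35.9% with C29, 86.3% and 79.9% with 5-azadC, and 100% and 67.7% with both, and the tile was called lower for C29 (-36.0 points). At chr11:96366001-96367000, 7 cytosines gave -25.1 points for 5-azadC, with 26.0% and 37.2% against 71.4% and 45.8% in vehicle. The 5-azadC libraries were above vehicle in the first tile and below it in the second.

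The Hoxb3 tiles at chr11:96332001-96333000 and chr11:96344001-96345000 were called for the combination, at -30.1 and -28.3 points. In the first the combination read 63.3% and 5.87%, so it rested on replicate 2; in the second it read 48.3% and 73% against 88.3% and 90.6% in vehicle. The Hoxa4 tile at chr6:52190001-52191000, with 11 coding cytosines, was called higher for C29 by 27.0 points, with 96.8% and 98.1% against 91.7% and 54.2%. Its 5-azadC libraries were far apart, at 27.2% and 90.9%. The Hoxa3 tile at chr6:52177001-52178000 was called lower for C29 (-28.4 points) through replicate 2, at 43.3% against 98.5% in replicate 1.

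The remaining called tiles held 1 to 6 cytosines. In Hoxa9, a blood stem cell and mammary gene, 6 cytosines gave -25.5 points for 5-azadC, and in Hoxc12, 4 cytosines gave -30.8. In Hoxc9, a thoracic motor neuron gene, 3 intron cytosines were called for C29 (-38.3 points) and for the combination (-29.9), with vehicle at 59.5% and 74.0%, C29 at 36.9% and 25.6% and the combination at 41.8% and 35.5%. In Hoxc8, 3 cytosines gave -32.8 points for the combination, and in Hoxa5, 3 cytosines gave -29.6. A Hoxd3 intron tile of 4 cytosines was called higher for the combination by 35.8 points, at 71.2% and 44.9% against 18.3% and 34.8%. The other called tiles, in Hoxa3, Hoxa4, Hoxa7, Hoxa10, Hoxc4 and Hoxd3, held 1 or 2 cytosines. Among them a Hoxa7 exon tile of 2 cytosines read 100% in both vehicle libraries, 5.68% and 43.8% with 5-azadC, and 34.2% and 100% with both drugs. A single Hoxa3 intron cytosine read 100% in both vehicle libraries, 0% in both with 5-azadC, and 83.3% and 100% with both drugs. A single Hoxd3 cytosine was called higher for 5-azadC (71.6 points) and for C29 (29.2). It read 0% and 2.78% in vehicle, 30.6% and 30.8% with C29, 40% and 100% with 5-azadC, and 31.6% and 0% with both. With as few as 10 reads per library in such tiles, these values are the least certain given here.

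All 4 libraries with 5-azadC were compared with all 4 without by the mean level of each tile. Of 120 tiles of at least 3 cytosines, 5 lay wholly lower, where the background was 6.1%, and 1 lay wholly higher, where it was 0.335%. Among the lower ones, the Hoxb7 tile at chr11:96287001-96288000, which spans an exon and intron with 13 cytosines, read 40.1% and 49.4% in vehicle, 41.7% and 37.7% with C29, 25.5% and 26.0% with 5-azadC, and 23.7% and 34.2% with both. The difference of mean levels was -17.5 points, and the window printed above took 6 to 11 distinct values per library. The others were in Hoxa5 (-26.5 points), Hoxb3 (-19.2), Hoxd3 (-10.6) and Hoxa6 (-8.45, over 26 cytosines). With reads pooled, the Hoxd3 and Hoxa6 tiles overlapped. In Hoxd3, vehicle replicate 1 at 29.4% lay below 5-azadC replicate 1 at 36.1%. In Hoxa6, C29+5-azadC replicate 1 at 76.9% lay above vehicle replicate 2 at 69.4%. The higher one was an intron tile of Hoxd3 at chr2:74741001-74742000, with 5 cytosines. Its pooled methylation read 22.3% and 12.1% in vehicle, 29.2% and 17.4% with C29, 48.9% and 37.8% with 5-azadC, and 36.6% and 42.3% with both. The difference of mean levels was 28.3 points, against -10.6 points in the tile just before it. Against vehicle it missed the 25-point limit narrowly, at 24.9 points for 5-azadC.

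**Figure D5:**
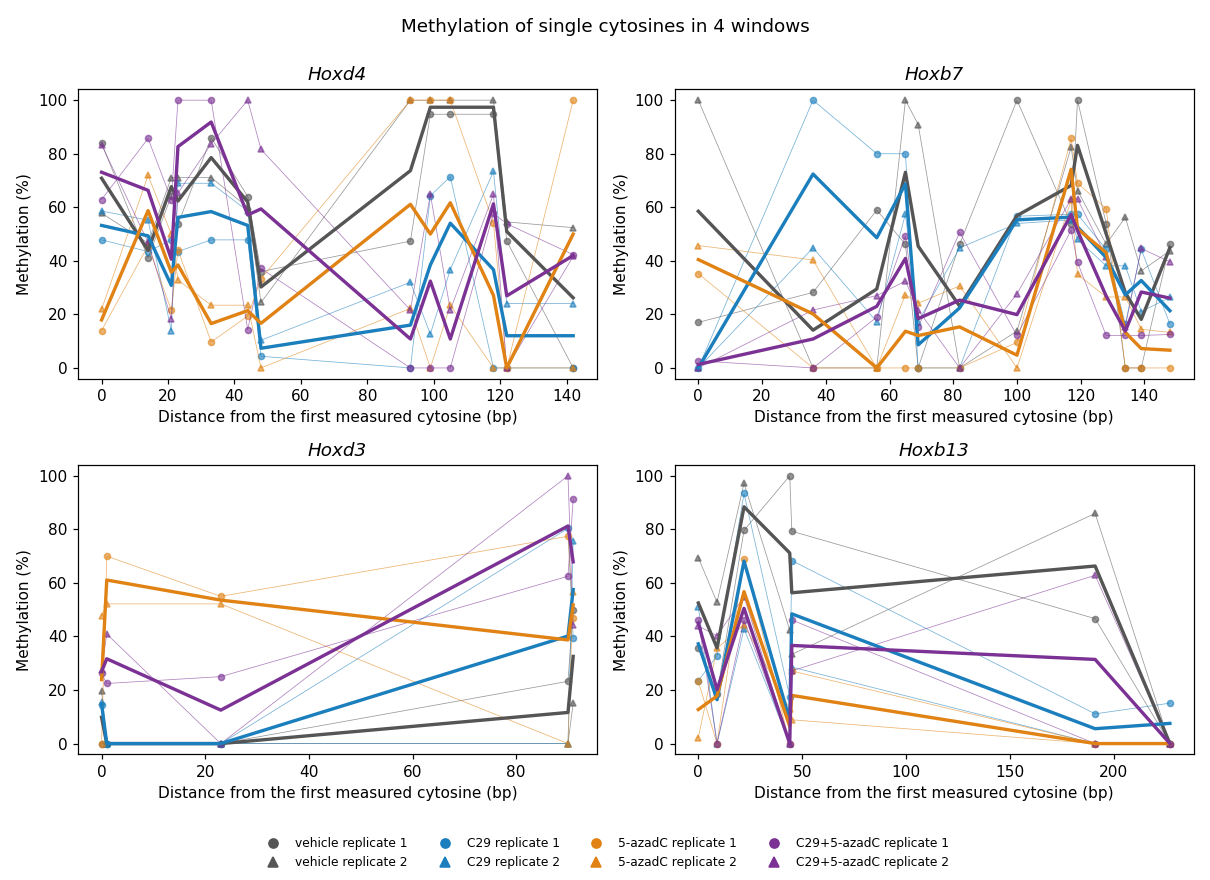
Methylation (%) of single cytosines in the 4 windows of Hoxd4, Hoxb7, Hoxd3 and Hoxb13, by distance from the first measured cytosine (bp); thin lines with symbols are libraries and thick lines group means of 2 libraries. Single cytosines scatter from 0% to 100% between replicates, while the window means differ less, as in Hoxb7, where libraries with 5-azadC averaged 19.9% to 30.6% and those without it 35.6% to 48.9%.

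Genes that work with or regulate Hox genes were taken from lists chosen with earlier results known. Counts at an unadjusted limma p under 0.05 stand against 17.8% of all genes for 5-azadC and 5.78% for C29. Of the 9 TALE homeodomain cofactors, which bind DNA together with Hox proteins, 0 passed limma's adjusted p for 5-azadC, and the list's median difference was -2.64 points. Among them, Pknox2 went from 36.7% to 30.3% and Meis3 from 10.3% to 7.88%, both with an unadjusted limma p under 0.05, and with C29 1 of 9 had such a p, Pbx3 from 2.68% to 3.73%. Of the 5 ParaHox genes tested, 1 had such a p with 5-azadC and was lower, Cdx1 from 57.4% to 44.2%, and 2 were lower with C29, Gsx2 from 21.5% to 14.2% and Cdx2 from 39.8% to 29.4%. The ParaHox median was -3.41 points with 5-azadC. Of the 14 Polycomb and trithorax genes, 2 were lower with 5-azadC at that level, a share below that of all genes: Cbx7 from 42.0% to 32.2% and Kmt2a, which maintains Hox expression, from 31.9% to 28.4%. With C29 1 was lower, Bmi1 from 3.43% to 0.893%. The list's median difference with 5-azadC was -0.754 points, against -1.91 for all genes.

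Of the 12 noncoding RNAs of the clusters that were tested, Hotairm1 had an unadjusted limma p under 0.05 with 5-azadC (16.7% to 12.2%) and with C29 (16.9% to 11.9%), and Hoxa11os with C29. That is 1 of 12 for 5-azadC, below the share of all genes, and 2 of 12 for C29. Hoxa11os, which overlaps Hoxa11 on the other strand, went from 51.3% to 40.1% (limma, adjusted p = 0.614), and the 2 genes share cytosines, so their values are not independent. Of the 8 flanking genes tested, Skap1, Skap2 and Smug1 were lower with 5-azadC at that level, by -10.4, -4.79 and -17.6 points, which is 3 of 8 against 17.8% of all genes, and Smug1 was also lower with C29, by -13.9 points (1 of 8 against 5.78%).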

How the data were processed

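RRBS of 8 libraries was analysed from 1 deposited table per library. Per the labels, the authors checked reads with FastQC 0.11.8, trimmed them with Trim Galore 0.4.1, aligned them to mm10/GRCm38 with Bismark 0.20.0 and compared groups with methylKit 1.7.0. The deposited values are the methylated fraction of each cytosine, from 0 to 1, and its read count. Methylated reads were recovered as fraction times count, which came out whole, within 0.01 of a read, for at least 99.9997% of cytosines. Cytosines with 10 or more reads in all 8 libraries were kept, strands separately, and each was counted equally in the percent methylation of a gene. Depth was a median of 21 to 30 reads over all deposited cytosines and 35 to 54 over the Hox cytosines kept. Reads carried no molecular identifiers, so counting error is a lower limit.

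Groups came from the labels. Gene means were fitted over 21230 autosomal genes in a 2 by 2 design (C29, 5-azadC, interaction) with limma 3.58.1 in R 4.3.3, with Benjamini-Hochberg adjustment and a threshold of 0.05; edgeR 4.0.16 on methylated and unmethylated reads and M values with a pseudocount of 1 were alternatives. Tiles of 1000 bp were tested on pooled reads by logistic regression in Python 3.11.15 (SciPy 1.17.1). The limma 5-azadC contrast and the logistic tile test were run on simulated data with known changes. The C29 and interaction contrasts, edgeR, the M values and the F test were not. Genes named were, in each cluster, the 2 of highest and the 1 of lowest vehicle level, the 8 largest 5-azadC and 3 largest C29 differences, those with a called tile, and Hoxa3; genes with an unadjusted p under 0.05 or separate groups were named after their values were seen. Members and lists were chosen with earlier results of these data known. Alternatives covered the read minimum, region, strands, tile length, test and libraries left out, and gene fits without a variance trend or the highest-coverage cytosines were added after seeing the data. Sequences were read from the mm10/GRCm38 reference, where all covered positions checked on chromosomes 2, 6, 11 and 15 lay at CpG sites. Gene models were from GENCODE M21. The values of 1 listed gene that is no member are not reported here.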

Additional observations from a re-analysis of the deposited data

How the results depend on the processing

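The count of 0 Hox genes past the adjusted threshold held for 5-azadC, C29 and their interaction under all 20 alternatives of each. The counts at an unadjusted p under 0.05 did move over the alternatives that kept all 8 libraries. For 5-azadC they ran from 0 on M values to 5 without a variance trend, against 10.4% and 19% of all genes. For C29 they ran from 0 on M values to 5 with at least 10 cytosines, against 5.2% and 5.42%. For the interaction they ran from 1 of 21 in the upstream region to 6 of 38 with strands summed, against 5.32% and 6.17%. Leaving out 1 library moved the 5-azadC and C29 counts further, where the lone library of a group has no replicate. The replicate numbers did not pair the libraries (correlations of same-numbered deviations -0.0126 to 0.0424), and a fit with the replicate block also called 0 Hox genes in each contrast. The Hox mean kept its direction under all 14 alternatives, from -1.49 to -3.59 points for 5-azadC and from -1.12 to -4.04 for C29. The tile counts depended on the settings. The overdispersion F test called 0 Hox tiles in each comparison. A limit of 10 points called 51, 51 and 50 (C29, 5-azadC, both drugs; 33.8%, 33.8% and 33.1% of Hox tiles against 31.2%, 42.6% and 39.7% of all tiles), and tiles of 500 bp called 22, 29 and 19 (10.5%, 13.9% and 9.09% against 10.7%, 15.4% and 15.1%). For 5-azadC, 20 reads and a minimum of 3 cytosines each called 7 (of 98 and of 120 Hox tiles, against 12.5% and 6.26% of all tiles), and for both drugs, asking that treated and vehicle libraries not overlap left 5. Leaving out 1 library gave 13 to 22 with C29, 16 to 22 with 5-azadC and 12 to 22 with both drugs, against 14.1% to 15.96%, 18.8% to 21.7% and 18.7% to 20.6% of all tiles, where the lone library of a group has no replicate, and the highest value came without vehicle replicate 1 in all 3. Hoxd8 changed direction with 5-azadC, at -13.2 points with 20 reads and -3.73 in the 2000 bp upstream alone. Hoxb3 was -6.11 with 5 reads. Hoxd10 was -2.44 with 5 reads, Hoxb13 -1.95 with pooled reads and -3.72 with strands summed, Hoxc13 -2.81 with strands summed and Hoxa6 -3.74 with pooled reads. Hoxb7 was -3.06 with 5 reads, -3.85 with strands summed and -3.02 upstream alone, and Hoxa5 was -4.86 with 5 reads and -11.3 with 20. The cause was not tested for any of these. With 2 pools per group and a median of 35 to 54 reads per Hox cytosine, SEs from limma ran from 1.14 to 12 points among the genes given with a main-effect SE. This limits what single genes can show.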
